A study of Mus musculus with 36 samples.

Results

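The CXC chemokines that attract neutrophils were followed in whole lung RNA of male mice exposed to ozone. The 6 genes Cxcl1, Cxcl2, Cxcl3, Cxcl5, Cxcl15 and Ppbp were taken, and every probe set that the array's annotation assigned to exactly 1 of them was kept, without regard to its values. That gave 6 of the 18193 genes with such a probe set, and 9 of the 45101 probe sets of the array: 1419209_at, 1441855_x_at and 1457644_s_at for Cxcl1, 1449984_at for Cxcl2, 1438148_at for Cxcl3, 1419728_at for Cxcl5, 1421404_at and 1456428_at for Cxcl15, and 1418480_at for Ppbp. Notch3-/- mice (allele Notch3tm1Grid), Notch4-/- mice (allele Notch4tm1Grid), both lines on a mixed strain background, and wild-type (WT) B6129SF1/J mice, all males of 7 to 13 weeks, breathed ozone at 0.3 ppm (6, 24 or 48 hr) or filtered air. There were 3 mice in each of the 12 groups of genotype and exposure and 1 array per mouse, 36 arrays in all. Each genotype had 1 air group, which was set against all 3 ozone times. The labels do not give the hours of its mice in filtered air. The study's methods place the air mice in a separate chamber, so effects of chamber or time in it cannot be told apart from ozone. The knockout lines carry their targeted allele in all cells, while the WT mice are first-generation hybrids, so that the deletion and the strain of a line cannot be told apart.

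Most of these small secreted proteins bind the receptor Cxcr2 on neutrophils and draw the cells along a gradient out of the blood. In the lung the inducible members are made by airway and alveolar epithelium, macrophages and endothelium. They are made largely after interleukin-1, tumor necrosis factor or interleukin-17 has switched on the transcription factor NF-kB. Most mRNAs of the inducible members are short-lived because proteins such as Zfp36 (tristetraprolin) bind them and lead to their decay. Cxcl1 (KC), Cxcl2 (MIP-2), Cxcl3 and Cxcl5 (LIX) are the inducible members in mice, Cxcl15 (lungkine) is a product of lung epithelium, and Ppbp encodes the platelet precursor of neutrophil-activating peptide 2.

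The 6 genes lie in 1 run on mouse chromosome 5. In the RefSeq annotation of GRCm38.p6 the order of protein-coding genes there is Cxcl5, Ppbp, Pf4, Cxcl3, Cxcl15, Cxcl1 and Cxcl2, with Pf4, the platelet chemokine, as the single gene of the run outside the set. Promoter sequence for 5 of the 6 genes was taken from RefSeq. None was at hand for Cxcl5, which reached the largest rise of the set over the genotypes. Whether all the strong risers share a promoter feature therefore cannot be read here. For the other 5 the 100 bases before each annotated start are shown, because strong and weak movers with ozone share this cluster. All 5 lie on the plus strand, and capitals mark matches to GGANNTTCC, the inner letters of an NF-kB site, searched on both strands.
Cxcl1, chr5:90891145-90891244: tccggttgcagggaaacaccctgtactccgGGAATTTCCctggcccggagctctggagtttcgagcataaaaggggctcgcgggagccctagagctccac
Cxcl2, chr5:90903799-90903898: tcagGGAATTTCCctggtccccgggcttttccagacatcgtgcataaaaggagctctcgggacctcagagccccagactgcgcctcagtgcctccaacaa
Cxcl3, chr5:90786001-90786100: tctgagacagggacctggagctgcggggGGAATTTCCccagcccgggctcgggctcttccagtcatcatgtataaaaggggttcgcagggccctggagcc
Cxcl15, chr5:90794434-90794533: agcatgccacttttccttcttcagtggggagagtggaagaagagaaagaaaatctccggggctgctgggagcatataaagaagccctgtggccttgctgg
Ppbp, chr5:90768418-90768517: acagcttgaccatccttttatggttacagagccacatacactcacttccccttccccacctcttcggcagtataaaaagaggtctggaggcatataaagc
Cxcl1, Cxcl2 and Cxcl3 each held 1 match, with the same letters GGAATTTCC, beginning 70, 96 and 72 bases before the start. Cxcl15 and Ppbp held none in the 250 bases before their starts. Of all 32851 promoters in the table, 3.59% held a match in that window. The letters TATAAA, the core of a TATA box, were found in Cxcl3, Cxcl15 and Ppbp and in 12.4% of all promoters, and TGANTCA, the core of an AP-1 site, in Ppbp and in 6.75% of all promoters. A match of letters is a description of these windows.

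Each value is a log2 distance from the middle (median) of all 36 arrays for its probe set, so 1 unit is a doubling, levels can be set side by side between mice but not between genes, and brightness or detection cannot be read. Array medians lay between -0.03 and 0.03. The targeted gene was low in its line at most of its probe sets, though not at all of them. A Notch3 probe set lay between -2.43 and -1.71 in Notch3-/- mice and between -0.37 and 0.88 in WT mice. A Notch4 probe set lay between -4.31 and -3.42 in ozone-exposed Notch4-/- mice and between -3.69 and -1.40 in Notch4-/- air mice. In WT mice it lay between -0.38 and 0.58. Another Notch4 probe set fell less, with -0.82 to -0.19 in Notch4-/- mice against -0.14 to 0.58 in WT mice. A further Notch4 probe set showed no loss, with -0.23 to 0.16 in Notch4-/- mice against -0.31 to 0.25 in WT mice. All differences below come from limma with 1 mean per group, fitted to 45037 probe sets, with a 95% interval or a standard error (SE) from that fit and p adjusted by Benjamini-Hochberg over all of them (threshold 0.05). Notch3-/- air replicate 3 stood apart in its skeletal muscle markers, with a mean of 3.94 over 8 of them. The other Notch3-/- air mice had -0.11 and 0.30, and any other array at most 1.33. Without Notch3-/- air replicate 3, 4 of the 9 member probe sets passed at 24 hr and 2 at 48 hr in Notch3-/- mice. With it 5 and 4 did, and the pooled counts of 8 and 7 did not move. Notch4-/- air replicates 1 and 2 had the smallest spread over probe sets of the 36 arrays. Their SD was 0.21 and 0.16, against 0.34 in replicate 3. They belong to the air group of every Notch4-/- difference and hold its higher Cxcl3 values, and replicate 2 its highest Cxcl5 value. The cause of the small spread was not tested. Because the RNA is from whole lung, more or fewer cells of a type and more or less of an mRNA per cell cannot be told apart.

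After 24 hr of ozone, Cxcl1 (1419209_at), Cxcl2, Cxcl3 and Cxcl5 lay above the air mice in all mice of each genotype, and over the genotypes all of them passed the test, while after 6 hr none did. Averaged over the genotypes, Cxcl5 rose 8.14-fold at 24 hr, Cxcl3 6.76-fold, Cxcl1 3.87-fold and Cxcl2 2.25-fold, against air, while Cxcl15 rose 1.18-fold and Ppbp did not pass the test. Of the 9 probe sets, 8 passed as higher, all but Ppbp, where 3.19% of all probe sets did. After 48 hr, 7 passed as higher, where 6.72% of all probe sets did, the exceptions being Ppbp and the Cxcl1 probe set 1441855_x_at. After 6 hr, 0 of the 9 passed by limma, where 0.822% of all probe sets were higher, although Cxcl2 had an unadjusted p of 0.0483. The pooled 24 hr count was 8 whichever single array was left out. At 48 hr it was 7 or 8 higher, the eighth being 1441855_x_at, with Ppbp passing as lower without any of 4 arrays.

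**Figure D1:**
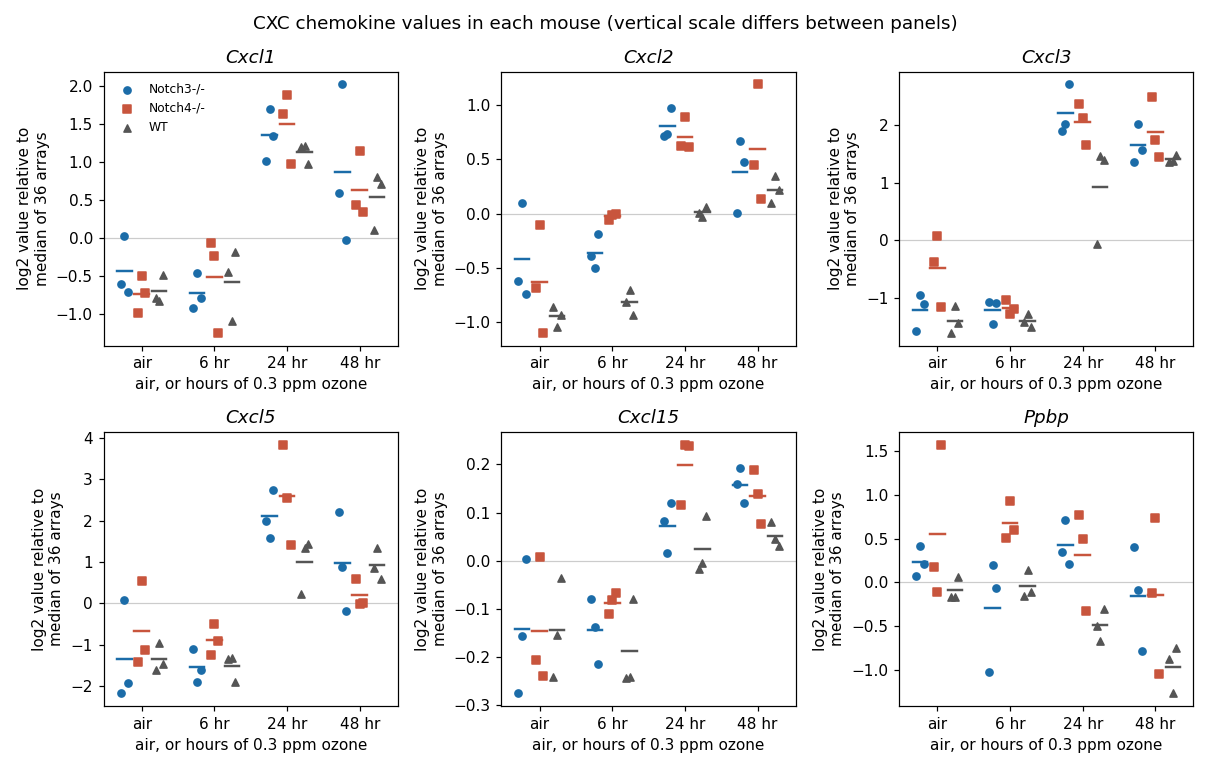
Log2 value of each chemokine (1419209_at for Cxcl1) in each of the 36 mice (vertical axis, relative to that probe set's median over the arrays) by exposure (horizontal axis, air and then 6, 24 and 48 hr of ozone), with Notch3-/- mice as blue circles, Notch4-/- mice as red squares and WT mice as grey triangles; short lines are group means of 3 mice. Cxcl1, Cxcl2, Cxcl3 and Cxcl5 passed the test at 24 hr and not at 6 hr over the genotypes, Cxcl15 (1421404_at) stayed between -0.28 and 0.24, and Ppbp showed no common course.

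Within the genotypes the 24 hr calls numbered 5 of 9 in Notch3-/- mice, 7 of 9 in Notch4-/- mice and 3 of 9 in WT mice, each in the higher direction. The share of all probe sets called higher in the same comparisons was 1.38% in Notch3-/- mice, 1.15% in Notch4-/- mice and 0.0933% in WT mice. At 48 hr, 4 of 9 were called in Notch3-/- mice, where 1.93% of all probe sets were higher, 4 of 9 in Notch4-/- mice, where 1.48% were, and 3 of 9 in WT mice, where 1.39% were. At 6 hr no member was called in any genotype, where 0.0644% of all probe sets were higher in Notch3-/- mice, 0.00444% in Notch4-/- mice and 0% in WT mice. An unadjusted p under 0.05 was reached at 6 hr by 0 of 9 in Notch3-/- mice and by 0 of 9 in WT mice. In Notch4-/- mice 2 of 9 reached it (Cxcl2 above air, Cxcl3 below it). That Cxcl3 difference was -0.69, and -0.41 without Notch4-/- air replicate 2. These within-genotype counts rest on single arrays more than the pooled ones. Without Notch4-/- air replicate 3 the Notch4-/- count at 24 hr was 3, and whichever of its 6 arrays was left out the WT count at 24 hr was 1, which was Cxcl3. The Notch3-/- count at 48 hr was 1 without air replicate 1 or ozone 48 hr replicate 2. The Notch4-/- count at 48 hr was 2 without air replicate 1 or 3 or ozone 48 hr replicate 1 or 2, and the WT count at 48 hr was 2 whichever of its 6 arrays was left out.

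Cxcl3, a close relative of Cxcl2, had the smallest adjusted p of the members at 24 hr. In Notch3-/- mice it stood at 1.90, 2.02 and 2.70 after 24 hr of ozone, against -1.58, -0.96 and -1.10 after air. In Notch4-/- mice it was 2.36, 2.13 and 1.65 after 24 hr, against -0.37, 0.07 and -1.15 after air. In WT mice it was -0.07, 1.45 and 1.39 after 24 hr, against -1.61, -1.14 and -1.43 after air. The ozone mice lay above the air mice of their own genotype throughout, with 1 WT ozone mouse well under the other 8 and 2 Notch4-/- air mice above the other air mice. The difference was 3.42 in Notch3-/- mice (SE 0.32, adjusted p = 2.99e-07), the third largest rise of all probe sets in that comparison. In Notch4-/- mice it was 2.53 (adjusted p = 0.000103) and in WT mice 2.32 (adjusted p = 0.000329), with a mean over genotypes of 2.76 (SE 0.18, adjusted p = 1.01e-10). At 48 hr Cxcl3 was 1.35, 2.02 and 1.57 in Notch3-/- mice, 2.48, 1.73 and 1.44 in Notch4-/- mice, and 1.36, 1.38 and 1.47 in WT mice. No 48 hr mouse overlapped an air mouse, and the differences from air were 2.86 in Notch3-/- mice (adjusted p = 7.44e-06), 2.37 in Notch4-/- mice (adjusted p = 0.000122) and 2.80 in WT mice (adjusted p = 5.93e-06). At 6 hr all 9 mice lay between -1.51 and -1.04, and the mean difference from air was -0.23 (SE 0.18, adjusted p = 0.519).

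Cxcl5, which in mouse lung is largely an epithelial product, had the second largest pooled 24 hr difference of all probe sets, and the largest SE among the members. In Notch3-/- mice it was 2.00, 1.57 and 2.74 after 24 hr of ozone, against -2.18, 0.08 and -1.92 after air. In Notch4-/- mice it was 3.84, 2.56 and 1.42 after 24 hr, against -1.43, 0.55 and -1.12 after air. In WT mice it was 0.22, 1.35 and 1.45 after 24 hr, against -1.61, -0.96 and -1.48 after air. In each knockout line 1 air mouse, replicate 2, stood well above the other 2, and still below all 24 hr mice of its line. Ozone minus air came to 3.44 (SE 0.59, adjusted p = 0.00136) for the Notch3-/- line, to 3.27 for the Notch4-/- line (adjusted p = 0.00452, the largest rise of all probe sets in that comparison) and to 2.36 in WT mice (adjusted p = 0.161, not called). The WT interval ran from 1.15 to 3.56, all above 0. With those 2 air mice left out, a choice made after seeing the data, the 24 hr differences were 4.16 in Notch3-/- mice (adjusted p = 9.69e-05) and 3.88 in Notch4-/- mice (adjusted p = 0.000281). Without Notch4-/- air replicate 3 the Notch4-/- call was lost (adjusted p = 0.0672).

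At 48 hr Cxcl5 passed in Notch3-/- and WT mice and not in Notch4-/- mice, although the responses themselves were not called different. It was 2.20, 0.88 and -0.18 in Notch3-/- mice, 0.59, -0.02 and 0.02 in Notch4-/- mice, and 0.86, 1.34 and 0.58 in WT mice. The 3 WT values lay above all WT air values, whereas in both knockout lines a 48 hr mouse lay below the high air mouse. The difference from air was 2.31 in Notch3-/- mice (adjusted p = 0.0279), 0.86 in Notch4-/- mice (95% interval -0.34 to 2.06, adjusted p = 0.586) and 2.28 in WT mice (adjusted p = 0.0356). With the 2 high air mice left out it was 3.02 in Notch3-/- mice (adjusted p = 0.00234) and 1.47 in Notch4-/- mice (adjusted p = 0.209). The Notch3-/- call at 48 hr was lost without air replicate 1 or 3 or ozone 48 hr replicate 1 or 2, with adjusted p between 0.0875 and 0.237. The WT call at 48 hr was lost whichever of its 6 arrays was left out, with adjusted p between 0.0612 and 0.136. At 6 hr the differences were -0.20 in Notch3-/- mice, -0.22 in Notch4-/- mice and -0.17 in WT mice, and no group of 3 separated from its air mice. The sign of both knockout values at 6 hr turned with those air mice left out, to 0.51 in Notch3-/- mice and 0.39 in Notch4-/- mice, neither of them called.

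Cxcl1, the mouse KC protein, had 3 probe sets. The first of them, 1419209_at, stood at 1.01, 1.71 and 1.34 in Notch3-/- mice after 24 hr of ozone, against -0.61, 0.02 and -0.71 after air. In Notch4-/- mice it was 1.64, 1.88 and 0.97 after 24 hr, against -0.99, -0.51 and -0.72 after air. In WT mice it was 1.20, 1.22 and 0.98 after 24 hr, against -0.79, -0.84 and -0.49 after air. All 9 ozone mice lay above all 9 air mice, and the WT mice of each group were tightly together. The differences were 1.79 in Notch3-/- mice (adjusted p = 0.00722), 2.24 in Notch4-/- mice (adjusted p = 0.00173) and 1.84 in WT mice (adjusted p = 0.0319), with an SE of 0.36 in each and a mean over genotypes of 1.95 (SE 0.21, adjusted p = 5.55e-07). The WT call was lost whichever of its 6 arrays was left out, with adjusted p between 0.0726 and 0.199. At 48 hr the values were 0.59, 2.03 and -0.02 in Notch3-/- mice, 0.43, 1.14 and 0.34 in Notch4-/- mice, and 0.11, 0.80 and 0.72 in WT mice. The Notch3-/- mice spread over 2 units, and 1 of them fell within the range of its air mice. The 48 hr differences were 1.30 in Notch3-/- mice (adjusted p = 0.0530), 1.38 in Notch4-/- mice (adjusted p = 0.0462) and 1.25 in WT mice (adjusted p = 0.0791), and their mean was 1.31 (adjusted p = 6.52e-05). The Notch3-/- difference at 48 hr was 0.72 without ozone 48 hr replicate 2 (adjusted p = 0.436) and passed without replicate 3 (1.74, adjusted p = 0.00893) and with array weights (1.86, adjusted p = 0.000585). The Notch4-/- call at 48 hr was lost whichever of its 6 arrays was left out (adjusted p between 0.0530 and 0.225).

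The other Cxcl1 probe sets gave smaller differences. 1457644_s_at followed the first closely (Pearson r = 0.96 over 36 arrays) and gave a pooled 24 hr difference of 1.40 (SE 0.16, adjusted p = 8.63e-07). 1441855_x_at, of the kind whose probes can bind unrelated transcripts, followed them less closely (r = 0.79 and 0.81) and gave 0.44 (SE 0.10, adjusted p = 0.0100). It passed in no single genotype, but without Notch4-/- air replicate 2 it did in Notch4-/- mice at 24 hr (0.68, adjusted p = 0.0483). For 1457644_s_at the Notch3-/- call at 24 hr was lost without air replicate 1 or 3 or ozone 24 hr replicate 2 (adjusted p between 0.0534 and 0.0794), and its WT call at 24 hr whichever of the 6 arrays was left out (adjusted p between 0.0784 and 0.207). Its Notch4-/- call at 48 hr was lost without air replicate 1 or 3 or ozone 48 hr replicate 1 or 2 (adjusted p between 0.0590 and 0.208).

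Cxcl2, the mouse MIP-2 protein, had a smaller fold at 24 hr than Cxcl1, Cxcl3 and Cxcl5. In Notch3-/- mice it was 0.72, 0.73 and 0.97 after 24 hr of ozone, against -0.62, 0.10 and -0.74 after air. In Notch4-/- mice it was 0.62, 0.89 and 0.61 after 24 hr, against -0.68, -0.11 and -1.10 after air. In WT mice it was 0.01, -0.03 and 0.06 after 24 hr, against -0.86, -1.04 and -0.93 after air. Groups within a genotype did not overlap, but the WT mice after 24 hr of ozone lay below the highest air mouse of the Notch3-/- line. For the Notch3-/- line the difference was 1.23 (SE 0.22, adjusted p = 0.00231), and it was 1.33 in Notch4-/- mice (adjusted p = 0.00195) and 0.96 in WT mice (adjusted p = 0.0985, not called). At 48 hr the values were 0.01, 0.67 and 0.48 in Notch3-/- mice, 0.44, 1.19 and 0.14 in Notch4-/- mice, and 0.10, 0.35 and 0.22 in WT mice. The Notch3-/- mice overlapped their air mice, the other lines did not, and all 3 differences passed: 0.81 in Notch3-/- mice (adjusted p = 0.0464), 1.22 in Notch4-/- mice (adjusted p = 0.00288) and 1.17 in WT mice (adjusted p = 0.00252). The Notch3-/- call at 48 hr was lost without air replicate 1 or 3 or ozone 48 hr replicate 2 or 3 (adjusted p between 0.130 and 0.254), and the Notch4-/- call at 24 hr without air replicate 3 (adjusted p = 0.0533). At 6 hr the 3 Notch4-/- mice lay between -0.06 and -0.01, above all air mice of that line, with a difference of 0.60 (95% interval 0.15 to 1.06, adjusted p = 0.320) that was not called and was 0.37 without air replicate 3.

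**Figure D2:**
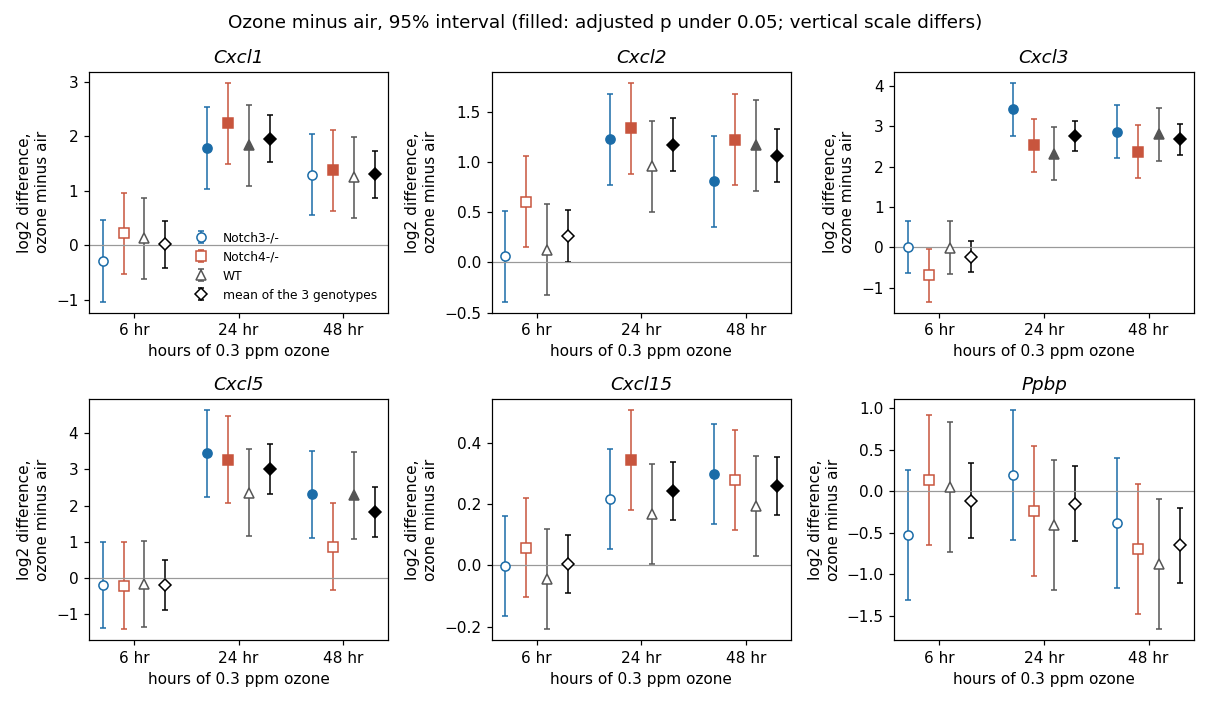
Log2 difference of ozone from air (vertical axis) after 6, 24 and 48 hr (horizontal axis) for each chemokine, in Notch3-/- mice (blue circles), Notch4-/- mice (red squares), WT mice (grey triangles) and as the mean of the genotypes (black diamonds); bars are 95% intervals and filled marks have adjusted p under 0.05. The 24 hr means of Cxcl1, Cxcl2, Cxcl3 and Cxcl5 lay at 1.95, 1.17, 2.76 and 3.02, and the Notch4-/- mark of Cxcl5 at 48 hr lay at 0.86 (1.47 with the high air mice of both knockout lines left out).

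Cxcl15, the lung epithelial member, changed by small and regular amounts. At 24 hr its probe set 1421404_at was between 0.02 and 0.12 in Notch3-/- mice, 0.12 and 0.24 in Notch4-/- mice and -0.02 and 0.09 in WT mice, while the air mice lay between -0.28 and 0.00 in Notch3-/- mice, -0.24 and 0.01 in Notch4-/- mice and -0.24 and -0.04 in WT mice. Within each genotype the 24 hr mice lay above the air mice. The pooled difference was 0.24 at 24 hr (SE 0.05, adjusted p = 0.00164) and 0.26 at 48 hr (adjusted p = 0.000232), and 1456428_at gave 0.34 (adjusted p = 0.000101) and 0.25 (adjusted p = 0.00108). Within a genotype, 1421404_at passed in Notch4-/- mice at 24 hr (0.34, adjusted p = 0.0274) and in Notch3-/- mice at 48 hr (0.30, adjusted p = 0.0377), and 1456428_at in Notch4-/- mice at 24 hr (0.46, adjusted p = 0.00754). For 1421404_at the Notch4-/- call was lost without air replicate 1 or 3 or ozone 24 hr replicate 2 or 3 (adjusted p between 0.0784 and 0.283) and the Notch3-/- call without air replicate 1 or 2 or any 1 of the ozone 48 hr arrays (adjusted p between 0.0632 and 0.279). For 1456428_at the Notch4-/- call was lost without air replicate 3 (adjusted p = 0.125) or ozone 24 hr replicate 2 (adjusted p = 0.0616). Without Notch4-/- air replicate 2 both probe sets also passed in Notch4-/- mice at 48 hr (adjusted p = 0.0209 for 1421404_at and 0.0118 for 1456428_at). The pair correlated at r = 0.91 over the arrays.

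Ppbp, the platelet member, was called in none of the comparisons of the main fit. At 48 hr it was 0.41, -0.09 and -0.79 in Notch3-/- mice, against 0.07, 0.42 and 0.21 after air. In Notch4-/- mice it was -0.12, 0.74 and -1.04 after 48 hr, against 0.18, -0.11 and 1.58 after air. In WT mice it was -0.87, -1.27 and -0.75 after 48 hr, against -0.17, -0.16 and 0.07 after air. The WT groups did not overlap, while in both knockout lines they did. The mean difference at 48 hr was -0.65 (SE 0.22, adjusted p = 0.0554). It passed without Notch3-/- ozone 48 hr replicate 1 (adjusted p = 0.0316), Notch4-/- air replicate 1 (0.0488) or 2 (0.0243) or Notch4-/- ozone 48 hr replicate 2 (0.0122). The mean difference also passed by limma with array weights (-0.56, adjusted p = 0.0202). It did so with only probe sets of 1 gene symbol (0.0481) and with only the more variable probe sets (0.0384). With array weights Ppbp was also lower at 48 than at 24 hr (-0.57, adjusted p = 0.0356). With WT mice fitted alone it was lower at 48 hr than in air (-0.88, adjusted p = 0.0143). The 9 measured platelet and megakaryocyte markers, among them Pf4, Itga2b and Gp9, had 0 calls at any ozone time over genotypes. At 48 hr, 8.39% of all genes were higher and 4.34% lower. The median difference of these markers at 48 hr was -0.20, where the median of all 18193 genes was 0.00. In Notch4-/- air replicate 3, the mouse with the highest Ppbp, the mean of these markers was 0.80, against 0.09 and -0.09 in the other Notch4-/- air mice. The part of platelet RNA in the Ppbp values was not tested.

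Most of the rise came between 6 and 24 hr. Cxcl2 was already above air at 6 hr in Notch4-/- mice (0.60, not called). With array weights that difference passed by limma (0.58, adjusted p = 0.0300). Against the 6 hr mice, 8 of 9 probe sets were higher at 24 hr over genotypes, where 6.24% of all probe sets were, with Cxcl5 at 3.22 (SE 0.34, adjusted p = 2.77e-07), Cxcl3 at 2.99 (adjusted p = 1.35e-11), Cxcl1 at 1.94 (adjusted p = 4.61e-07), Cxcl2 at 0.91 (adjusted p = 2.32e-05) and Cxcl15 at 0.24 (adjusted p = 0.000835). This comparison shares its 24 hr mice with that against air. Between 24 and 48 hr only Cxcl5 passed as lower, 1 of 9 where 3.02% of all probe sets were lower, with a difference of -1.21 (SE 0.34, adjusted p = 0.0287). Cxcl1 followed with -0.65 (95% interval -1.08 to -0.21, adjusted p = 0.0611), while Cxcl3 (-0.08, interval -0.46 to 0.30) and Cxcl2 (-0.11, interval -0.37 to 0.15) were not called. The count of members lower at 48 than at 24 hr ranged from 0 to 3 when single arrays were left out. The Cxcl5 call was lost when any of 7 arrays was left out (WT ozone 24 hr replicates 2 and 3, WT ozone 48 hr replicate 3, Notch3-/- ozone 24 hr replicate 1, Notch3-/- ozone 48 hr replicate 3, Notch4-/- ozone 24 hr replicate 1 and Notch4-/- ozone 48 hr replicate 2), with adjusted p from 0.0523 without Notch3-/- ozone 24 hr replicate 1 to 0.0818 without Notch3-/- ozone 48 hr replicate 3, and Cxcl1 passed without Notch3-/- ozone 48 hr replicate 2 (adjusted p = 0.00511) or Notch4-/- ozone 24 hr replicate 3 (adjusted p = 0.0483). Its probe set 1457644_s_at passed without either of these or without Notch4-/- ozone 48 hr replicate 2 (adjusted p between 0.0109 and 0.0398).

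In air the knockout lines were not called different from WT in any member, 0 of 9 for Notch3-/-, where 0.486% of all probe sets were called in either direction, and 0 of 9 for Notch4-/-, where 0.482% were. The number with an unadjusted p under 0.05 was 1 of 9 for each line, Cxcl2 in Notch3-/- mice and Cxcl3 in Notch4-/- mice. Cxcl3 was at -0.37, 0.07 and -1.15 in Notch4-/- air mice, against -1.61, -1.14 and -1.43 in WT air mice. The groups overlapped by 1 Notch4-/- mouse, and the difference was 0.91 (95% interval 0.26 to 1.56, adjusted p = 0.368). Cxcl2 was at -0.62, 0.10 and -0.74 in Notch3-/- air mice, against -0.86, -1.04 and -0.93 in WT air mice. The groups did not overlap, and the difference was 0.52 (95% interval 0.07 to 0.98, adjusted p = 0.596), or 0.26 without Notch3-/- air replicate 2. With array weights, estimated from the spread of each array around its group mean, the Cxcl3 difference passed by limma (0.99, adjusted p = 0.0247). Its higher Notch4-/- values came from air replicates 1 and 2, the arrays with the smallest spread over probe sets. The mean of 11 neutrophil marker genes in an array ran from 0.08 to 1.46 in Notch3-/- mice and from -0.31 to 0.67 in Notch4-/- mice, against -0.83 to -0.11 in WT mice, over all exposures. The WT arrays stood lowest already in air, where the mean was 0.13 to 0.20 in Notch3-/- mice and 0.10 to 0.32 in Notch4-/- mice, against -0.81 to -0.37 in WT mice. Taken singly, 0 of the 11 markers were called against WT in air in either line. Over all 18193 genes, 51 were higher and 56 lower in Notch3-/- air mice, and 41 and 66 in Notch4-/- air mice. The median marker difference from WT was 0.48 in Notch3-/- mice (range 0.21 to 1.47). In Notch4-/- mice it was 0.67 (range -0.22 to 2.94). The part of neutrophil RNA in the chemokine values was not tested.

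The ozone response of neither knockout line was called different from that of WT in any member. For Notch3-/- against WT, 0 of 9 passed at 6, 24 and 48 hr, where 0.00888%, 0.00444% and 0.00222% of all probe sets did. For Notch4-/- against WT, 0 of 9 passed at 6, 24 and 48 hr, where 0%, 0% and 0.00222% of all probe sets did. The number with an unadjusted p under 0.05 was 1 of 54, Cxcl3 in Notch3-/- mice at 24 hr, where the response exceeded that of WT by 1.10 (95% interval 0.18 to 2.03, adjusted p = 0.453). Its interval spans folds of 1.13 to 4.07. Without WT ozone 24 hr replicate 1, the low mouse of its group, it was 0.61 (adjusted p = 0.660). Cxcl5 had differences of 1.09 in Notch3-/- mice (interval -0.61 to 2.79) and 0.92 in Notch4-/- mice (interval -0.78 to 2.61) at 24 hr, and of -1.42 in Notch4-/- mice at 48 hr (interval -3.12 to 0.28). With the high air mouse of each knockout line left out these were 1.80, 1.52 and -0.81, and none was called. For Cxcl1 at 24 hr the differences were -0.05 in Notch3-/- mice (interval -1.11 to 1.01) and 0.40 in Notch4-/- mice (interval -0.66 to 1.46), and for Cxcl2 they were 0.27 (interval -0.37 to 0.91) in Notch3-/- mice and 0.38 (interval -0.26 to 1.02) in Notch4-/- mice. The intervals of Cxcl15 (1421404_at) were narrower, -0.18 to 0.28 in Notch3-/- mice and -0.05 to 0.41 in Notch4-/- mice at 24 hr.

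**Figure D3:**
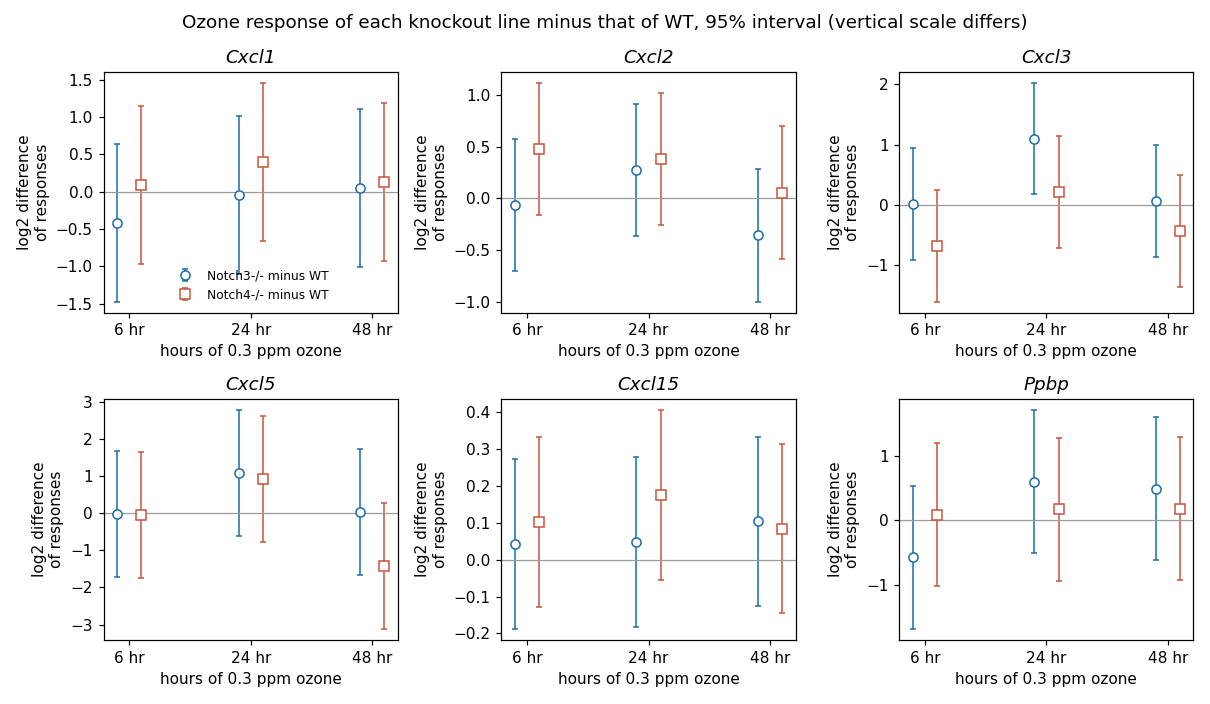
Difference between the ozone response (ozone minus air, log2) of a knockout line and that of WT (vertical axis) after 6, 24 and 48 hr (horizontal axis) for each chemokine, Notch3-/- minus WT as blue circles and Notch4-/- minus WT as red squares, with 95% intervals; open marks did not pass the test. All marks are open, and the interval of Cxcl3 in Notch3-/- mice at 24 hr (0.18 to 2.03) lay above 0; the value was 1.10 with all mice and 0.61 without WT ozone 24 hr replicate 1.

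Across the 36 arrays the members other than Ppbp went up and down together, with Pearson r from 0.76 (Cxcl1 with Cxcl15) to 0.88 (Cxcl3 with Cxcl5) over the 10 pairs. Ppbp had r between -0.17 (with Cxcl3 and Cxcl15) and a value near 0 with the others. The arrays of 1 group share an exposure, and once the group means were taken out the same 10 pairs had r between 0.10 and 0.55. The probe sets most like Cxcl3 were those of Timp1 (r = 0.97), an inhibitor of matrix proteases, and Socs3 (0.96 and 0.95 for its pair of probe sets), the feedback inhibitor of interleukin-6 signaling. For Cxcl1 they were Il6 (0.89), the metallothionein Mt2 (0.88) and Ccl2 (0.87), a monocyte chemokine, and for Cxcl2 they were Il6 (0.89), Naa15 (0.88) and Ccl17 (0.87). Cxcl5 was nearest to Socs3 (0.89), Adamts4 (0.89) and Bcl3 (0.88), and Cxcl15 to Litaf (0.92), Glrx (0.91) and Tnc (0.90). The genes nearest to Ppbp were the platelet genes Alox12 (0.94), Tubb1 (0.93) and Itga2b (0.90).

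In the list taken as cytokines upstream of these chemokines, Il6 moved most, although it is not among the inducers named above. Of 6 measured genes of this list, 3 were higher and 0 lower over genotypes at 24 hr, with a median difference of 0.43 where the median of all genes was -0.02 and 3.88% were higher and 2.56% lower. Il6 rose by 3.05 (SE 0.22, adjusted p = 4.84e-10), the alarmin Il33 by 0.87 (adjusted p = 5.18e-06) and Il1b by 0.63 (adjusted p = 0.00559). Tnf was at 0.15 (SE 0.10, adjusted p = 0.434), Il1a at 0.22 (adjusted p = 0.123) and Il17a at -0.14 (adjusted p = 0.251). At 48 hr 4 of 6 were higher, Il1a among them at 0.28 (adjusted p = 0.0291), where 8.39% of all genes were higher and 4.34% lower. At 6 hr 0 were higher and Il17a was lower by a difference of -0.25 (adjusted p = 0.0475), where 0.715% of all genes were higher and 2.22% lower. Of 11 receptors and adaptors of these cytokines, 4 were higher and 0 lower at 24 hr: the interleukin-1 receptor Il1r1 (0.46), the tumor necrosis factor receptor Tnfrsf1a (0.33), the adaptor Myd88 (0.57) and Il6st (0.45), the signaling chain of the interleukin-6 receptor. At 48 hr 6 were higher and 0 lower, and at 6 hr 0 were called.

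Genes of the NF-kB pathway had smaller differences. Of 12 measured, 5 were higher and 0 lower at 24 hr and 6 and 0 at 48 hr. Over all genes, 3.88% were higher and 2.56% lower at 24 hr, and 8.39% and 4.34% at 48 hr. At 6 hr these shares were 0.715% and 2.22%. Bcl3, a nuclear cofactor of NF-kB, rose by 1.11 (SE 0.12, adjusted p = 4.23e-07), Relb by 0.45, Nfkb2 by 0.40, Rel by 0.33 and the feedback inhibitor Tnfaip3 by 0.23 at 24 hr. Nfkbia, the inhibitor IkB-alpha, was the 1 gene of the list called at 6 hr (0.23, adjusted p = 0.0252), and it was at 0.06 at 24 hr (adjusted p = 0.573). No chemokine was called at 6 hr, though 1 of the 9 probe sets, that of Cxcl2, had an unadjusted p under 0.05 by limma. Which of these genes rose first was not tested. Of 7 genes that set the lifetime of chemokine mRNAs, 2 were higher at 24 hr, Zfp36 by 0.47 (adjusted p = 0.00596) and the ribonuclease Zc3h12a by 0.36 (adjusted p = 0.00142). Zfp36 alone of them was higher at 6 hr (0.40, adjusted p = 0.0324), and at 48 hr Zc3h12a was higher (0.28, adjusted p = 0.00560) and Hnrnpd lower (-0.35, adjusted p = 0.0191).

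On the receiving side, 0 or 1 of 7 CXC receptors was called at a time, near the share of all genes. Over all genes, 3.88% were higher and 2.56% lower at 24 hr, and 8.39% and 4.34% at 48 hr. At 6 hr these shares were 0.715% and 2.22%. Of 7 measured CXC receptors, Cxcr2 included, 0 were called at 6 or 24 hr, and 1 at 48 hr, Cxcr3, a receptor found on T cells (-0.27, adjusted p = 0.0124). Cxcr2 was at 0.07 at 24 hr (SE 0.11, adjusted p = 0.753) and -0.14 at 48 hr (adjusted p = 0.528). Of 9 molecules of leukocyte adhesion to endothelium, 3 were higher at 24 hr, E-selectin Sele by 0.93 (adjusted p = 7.95e-06), P-selectin Selp by 0.35 (adjusted p = 0.0405) and Icam1 by 0.30 (adjusted p = 0.0139). At 48 hr 3 were higher (Selp, Icam1 and the integrin chain Itgb2) and Pecam1 lower (-0.42, adjusted p = 0.0276), and Sele was at 0.26 (adjusted p = 0.177). Of 7 granulocyte growth factors and receptors, Csf2rb alone was higher at 24 hr (0.43, adjusted p = 0.0474), and Csf2rb (0.84) and Csf2ra (0.32) at 48 hr, while Csf3, the granulocyte factor, was at -0.03 at 24 hr (adjusted p = 0.882) and 0.04 at 48 hr (adjusted p = 0.838). Of 9 other CXC chemokines, Cxcl10 and Cxcl14 were higher at 24 hr (0.97 each, adjusted p = 0.000950 and 2.65e-05), and at 48 hr also Cxcl16, Cxcl9 and Cxcl13.

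**Figure D4:**
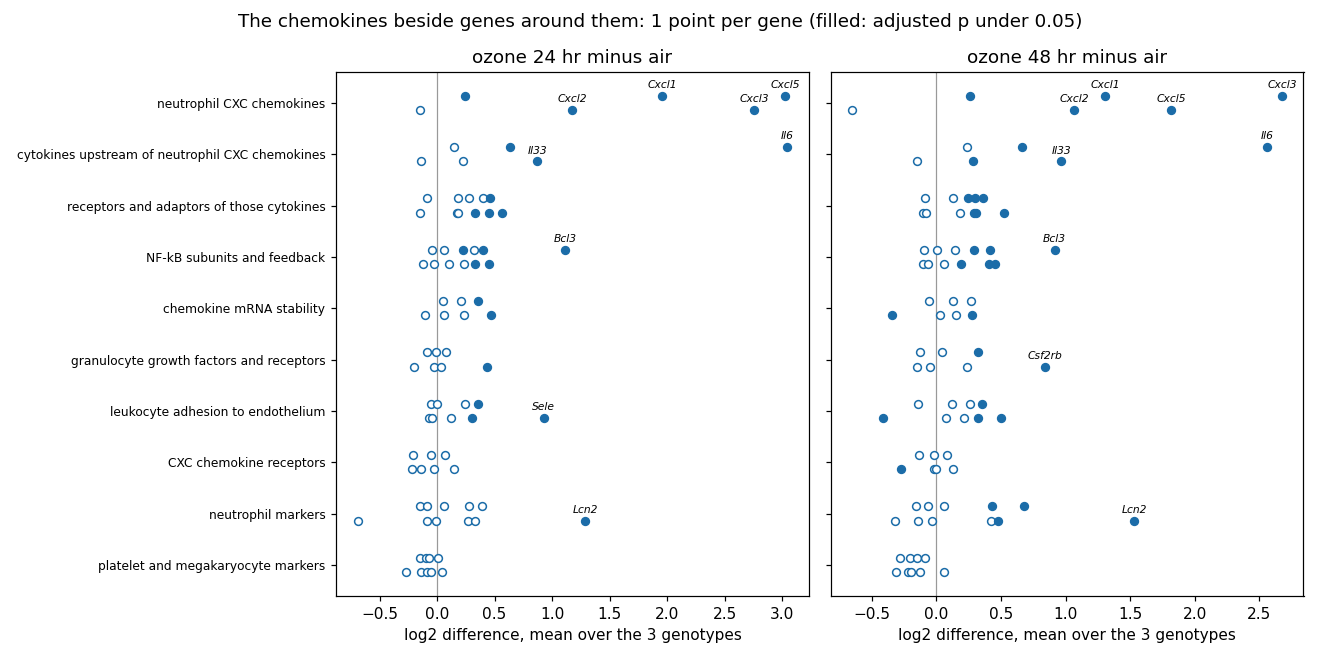
Log2 difference of ozone from air as the mean of the genotypes (horizontal axis) after 24 hr (left) and 48 hr (right) for the chemokines and for 9 lists of genes around them (vertical axis), 1 point per gene; filled points have adjusted p under 0.05 and those above 0.8 are named. Beside the chemokines, Il6 lay at 3.05 and 2.56, Bcl3 at 1.11 and 0.92 and Lcn2 at 1.29 and 1.53, while all platelet marker points are open.

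Markers of neutrophils, the cells these chemokines attract, were called in part at 24 and 48 hr. Of 11 measured, 1 was higher at 24 hr over genotypes, Lcn2 by 1.29 (adjusted p = 2.24e-07), which lung epithelium also makes, where 3.88% of all genes were higher, and the granule proteins S100a8 and S100a9 were at -0.15 and -0.09 (adjusted p = 0.835 and 0.907). At 48 hr 4 were higher, Lcn2 (1.53), the collagenase Mmp8 (0.68), Fpr2 (0.48) and Il1r2 (0.43), where 8.39% of all genes were higher, with a list median of 0.055 (all genes 0.00). At 6 hr 0 were called. Within the lines the list median at 6, 24 and 48 hr was 0.36, 0.44 and 0.51 in Notch3-/- mice, with 11, 11 and 9 of 11 markers above air, of which 0, 2 and 1 passed. It was -0.18, -0.13 and 0.38 in Notch4-/- mice and -0.10, -0.06 and 0.19 in WT mice, with 0, 1 and 1 markers passed in each. Of all 18193 genes, 7616, 7020 and 8925 lay above air in Notch3-/- mice at these times, and 16, 325 and 502 passed as higher. In Notch4-/- mice 1, 276 and 376 genes passed as higher, and in WT mice 0, 27 and 334. In air, 0 of the 11 markers were called against WT in either knockout line. Whether the ozone response of these markers differed between the lines was not tested.

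Among markers of other cells, calls over genotypes came mainly at 48 hr. Of all genes, 8.39% were higher and 4.34% lower then, against 3.88% and 2.56% at 24 hr. Of 9 measured alveolar type 2 and club cell markers, Sftpd was higher (0.16) and Scgb3a2 lower (-0.22) at 24 hr, Sftpd higher (0.23) and Cyp2f2 lower (-0.20) at 48 hr, and 0 were called at 6 hr. Sftpc, which defines type 2 cells, was at 0.02 at 24 hr (SE 0.03). Of 7 alveolar macrophage markers, Marco was higher at 24 hr (0.73), Marco, Chil3 and Mrc1 at 48 hr, and 0 at 6 hr. Endothelial markers had 0 of 8 calls at 6 and 24 hr and 4 lower at 48 hr (Cldn5, Tie1, Emcn and Ramp2), and T and B cell markers had 0 of 7 at 6 and 24 hr and 1 lower at 48 hr, Cd8a (-0.25). The 8 skeletal muscle and 4 red cell markers had 0 calls at any time, with muscle medians of -0.38, -0.42 and -0.46 at 6, 24 and 48 hr over genotypes. By line these medians were -0.94, -1.52 and -1.38 in Notch3-/- mice, -0.28, -0.14 and -0.06 in Notch4-/- mice, and near 0, 0.52 and 0.09 in WT mice; the Notch3-/- values include the air mouse that stood apart.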

How the data were processed

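RNA of the left lung of each of 36 mice was read on its own Affymetrix expression array; the right lungs were lavaged. The authors corrected, quantile normalized and summarised the arrays by robust multiarray average (RMA) with GeneSpring GX software. The deposited numbers are on the log2 scale, with each probe set centred on its median over the 36 arrays (largest absolute median 5e-07), a step found in the values and not described in the methods. Groups were taken from the labels, with 0 sample columns unassigned. The number of arrays limits the precision (median SE 0.139 log2 for ozone against air).

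The 64 control probe sets were left out and the other 45037 fitted with limma 3.58.1 in R 4.3.3 (lmFit, eBayes) with 1 mean for each of the 12 groups. There were 22 comparisons: 9 of ozone with air within a genotype, 3 as the mean over genotypes, 2 between ozone times, 2 of air-exposed knockout mice with air-exposed WT mice, and 6 of responses. The methods' 2-way ANOVA with Tukey's test was an alternative, with other normalizations, filters, array weights and arrays left out. Legends of other assays of the study say that mice were exposed in several groups, and which array mouse was in which is not given in the labels, so the p-values measure the spread between these mice. Notch4-/- against WT air alone had all 3 pairs of same-numbered mice correlated above 0.1 in their deviations. Those correlations were 0.26, 0.14 and 0.18, from the data and not the labels. The replicate block gave 0 calls there as well.

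Genes in the 16 lists were read at 1 probe set each (most specific suffix, then lowest number). All member probe sets are named; of a list, its first 4 genes and any called gene where 5 or fewer were called may be named, and 3 most similar probe sets per member. The members, lists and tests were chosen with earlier results of these data known. The steps were tested on simulated data.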

Additional observations from a re-analysis of the deposited data

How the results depend on the processing

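Counts here are members of 9 past the threshold, with the value reported above in brackets. Direction held in every called value under every setting tried, and 249 of 4168 alternative values changed sign, none of them called in either setting. At 6 hr, in air and for the responses the count stayed 0, except for 1 with array weights in Notch4-/- mice at 6 hr (Cxcl2) and in Notch4-/- against WT air (Cxcl3). Array weights gave 7 (4) for Notch3-/- at 48 hr, 5 (3) for WT at 24 hr and 3 (1) for 48 against 24 hr. Tukey's test with its p adjusted over all probe sets gave 1 for Notch3-/- at 24 hr (5) and 48 hr (4), 1 for Notch4-/- at 24 hr (7) and 48 hr (4), and 0 (3) at 24 hr and 1 (3) at 48 hr for WT; the 1 was Cxcl3 each time. A looser reading added after seeing the data, an adjusted ANOVA with Tukey's p unadjusted, gave 6 (3) for WT at 24 hr. Fitting 1 genotype at a time gave 1 (4) for Notch3-/- at 48 hr, 3 (7) and 1 (4) for Notch4-/- at 24 and 48 hr, and 5 (3) and 6 (3) for WT, the 6 with Ppbp as lower. Joint adjustment over the comparisons of a kind gave 1 (4) for Notch3-/- at 48 hr, 5 (3) for WT at 24 hr and 2 (1) for 48 against 24 hr. A trend and robust prior gave 1 (3) for WT at 24 hr; centred values hold no intensity for a trend to follow. For 48 against 24 hr, repeated quantile normalization and the more variable probe sets gave 3 (1) each. Leaving out Notch4-/- air replicates 1 and 2 together gave 2 (4) for Notch4-/- at 48 hr. With single arrays left out, the counts were 4 to 5 (5) and 1 to 3 (4) for Notch3-/- at 24 and 48 hr, 3 to 8 (7) and 2 to 5 (4) for Notch4-/-, 1 (3) and 2 (3) for WT, 7 to 9 (7) for the pooled 48 hr comparison, counting Ppbp as lower without 4 of the arrays, and 0 to 3 (1) for 48 against 24 hr. The cause of these changes was not tested. Tukey's test was not run for pooled comparisons and responses.

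In 10 of 11 comparisons the 3 pairs of same-numbered mice did not all have deviations that correlated above 0.1. Of 33 pairs of samples, 17 correlated above 0.1, and the range was -0.42 to 0.52. Notch3-/- against WT air fell just short of that mark (0.098, 0.16 and 0.22). WT at 48 hr against air had 0.52, 0.49 and -0.05. Whether same-numbered mice were handled together was not tested. With a replicate block the count for 48 against 24 hr was 3 (1), and the other counts stayed within 1.5 times, Notch4-/- against WT air at 0 (0).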
